A study of Caenorhabditis elegans with 2 samples.

Results

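The regions described here are the strong DPL-1 peaks at promoters that belong to a single protein-coding gene of the 5 autosomes of Caenorhabditis elegans. They were chosen by the deposited signal of each peak and by position: an irreproducible discovery rate (IDR) peak on an autosome with a signal of 300 or more, with its summit in the promoter window of exactly 1 protein-coding gene. The window reached 500 bp upstream of an annotated transcript start and 200 bp past it. There were 337 such peaks among 3369 IDR peaks, at 337 different genes. This is 1.95% of the 17242 autosomal protein-coding genes, a share that the rule itself sets. The peaks come from chromatin immunoprecipitation with sequencing (ChIP-seq) of tagged DPL-1 in whole L4 larvae, the last larval stage, of mixed sex. The strain was OP105, genotype unc119(ed3) with the integrated array wgIs105, which holds dpl-1 joined to TY1, EGFP and FLAG tags and an unc119 copy. The labels give 1 group of 2 biological replicates and no second condition, and the age is labelled unknown. Whole animals were used, so binding in different cell types cannot be told apart.

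DPL-1 belongs to the DP family, whose proteins pair with E2F transcription factors to bind DNA. It joins EFL-1, the Rb-like protein LIN-35 and the MuvB proteins in DRM, which corresponds to the DREAM complex of other animals, a repressor of cell cycle genes. In mammals DREAM reaches promoters through E2F sites, read by the E2F and DP subunits, and through the cell cycle homology region (CHR), an AT-rich element read by the MuvB subunit LIN54. LIN-54 is its worm counterpart. DREAM is known best for the genes of DNA replication and mitosis.

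The sequences under the summits show what these elements look like in the strong peaks. Each stretch runs 100 bp either side of the summit, 5′ to 3′ on the strand of the gene, and was read from the RefSeq copy of the WBcel235 assembly, which is ce11. The first set is shown because an E2F site and a CHR element lie end to end or 1 base apart. It holds sec-61.G (chrV:10897273-10897473, minus strand), ufd-3 (chrII:9940530-9940730, plus strand) and mys-1 (chrV:7084827-7085027, minus strand), with cdc-48.1 (chrII:10563475-10563675, minus strand), the strongest member with an E2F site. Capitals mark E2F sites and CHR elements, and adjoining ones run together.
sec-61.G: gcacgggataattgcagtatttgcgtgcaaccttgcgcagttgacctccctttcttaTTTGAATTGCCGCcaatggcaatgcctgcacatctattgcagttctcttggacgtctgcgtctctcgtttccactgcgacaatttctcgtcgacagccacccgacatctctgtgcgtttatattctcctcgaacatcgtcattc
ufd-3: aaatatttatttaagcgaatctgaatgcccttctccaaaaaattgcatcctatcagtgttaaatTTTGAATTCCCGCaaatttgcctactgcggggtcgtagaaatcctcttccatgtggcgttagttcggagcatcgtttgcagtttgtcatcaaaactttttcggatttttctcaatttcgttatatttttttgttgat
mys-1: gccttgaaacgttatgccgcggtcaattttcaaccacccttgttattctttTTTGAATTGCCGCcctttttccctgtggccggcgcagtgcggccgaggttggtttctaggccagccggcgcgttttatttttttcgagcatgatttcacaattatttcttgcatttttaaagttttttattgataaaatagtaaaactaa
cdc-48.1: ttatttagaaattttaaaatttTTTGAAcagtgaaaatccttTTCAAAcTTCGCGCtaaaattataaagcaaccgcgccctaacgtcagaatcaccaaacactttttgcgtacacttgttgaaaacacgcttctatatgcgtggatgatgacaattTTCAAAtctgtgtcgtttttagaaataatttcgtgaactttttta

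The second set is shown because its genes belong to the E2F partner of DPL-1 and to DNA replication. It holds efl-1 (chrV:16965750-16965950, minus strand), pcn-1 (chrIV:4049602-4049802, minus strand), mcm-7 (chrV:4346901-4347101, plus strand) and mcm-2 (chrII:12006779-12006979, minus strand). Capitals again mark E2F sites and CHR elements.
efl-1: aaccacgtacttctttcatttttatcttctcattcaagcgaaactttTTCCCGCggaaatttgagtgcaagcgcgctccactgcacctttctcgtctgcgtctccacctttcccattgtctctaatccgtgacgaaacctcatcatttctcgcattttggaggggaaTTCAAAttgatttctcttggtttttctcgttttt
pcn-1: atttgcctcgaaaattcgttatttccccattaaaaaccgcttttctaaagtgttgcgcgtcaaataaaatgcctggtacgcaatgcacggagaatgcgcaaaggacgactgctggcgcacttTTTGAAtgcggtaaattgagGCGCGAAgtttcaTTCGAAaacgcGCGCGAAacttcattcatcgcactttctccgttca
mcm-7: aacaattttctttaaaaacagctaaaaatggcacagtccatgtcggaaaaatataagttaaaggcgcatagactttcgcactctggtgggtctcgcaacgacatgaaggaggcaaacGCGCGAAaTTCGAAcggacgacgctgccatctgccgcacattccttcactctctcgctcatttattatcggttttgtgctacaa
mcm-2: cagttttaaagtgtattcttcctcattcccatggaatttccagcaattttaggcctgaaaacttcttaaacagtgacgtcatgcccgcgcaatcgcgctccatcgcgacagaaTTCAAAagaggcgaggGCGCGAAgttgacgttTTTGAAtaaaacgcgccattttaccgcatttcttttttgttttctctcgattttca

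The third set, rpl-3 (chrIII:3867471-3867671, plus strand) and cox-5A (chrIII:12905094-12905294, plus strand), is shown because, these are the strongest members with GAGAG and no E2F site within 100 bp of the summit. Here capitals mark CHR elements and GAGAG on either strand.
rpl-3: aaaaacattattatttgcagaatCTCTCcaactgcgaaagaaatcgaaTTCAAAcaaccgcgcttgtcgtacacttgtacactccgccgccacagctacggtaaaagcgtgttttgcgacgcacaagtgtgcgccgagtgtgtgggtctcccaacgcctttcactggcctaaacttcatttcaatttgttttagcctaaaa
cox-5A: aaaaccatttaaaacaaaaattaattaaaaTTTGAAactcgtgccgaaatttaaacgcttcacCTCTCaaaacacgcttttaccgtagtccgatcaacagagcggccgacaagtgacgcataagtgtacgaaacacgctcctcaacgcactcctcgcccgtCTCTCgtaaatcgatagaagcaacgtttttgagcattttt

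The signal is the authors' value per peak, relative to a control, in units that the sources used here do not state. Because the rule rests on it, it is described and not tested. It ranged from 301 to 5205 among the members, with a median of 581 and quartiles of 404 and 884. The strongest was at rpl-3 (WBGene00004414), which encodes a protein of the large ribosomal subunit, with 5205 in the IDR list, 2166 in replicate 1 and 3096 in replicate 2. The second was at cdc-48.1 (WBGene00007352), which encodes an AAA ATPase that extracts ubiquitinated proteins, with 4800 in the IDR list, 2101 in replicate 1 and 2743 in replicate 2. Both stood well above the tenth of the members, dnj-9, which encodes a DnaJ co-chaperone and had a signal of 2028. Another large-subunit gene, rpl-35, came next with 3799. They were followed by tasp-1, whose product is a taspase-like protease, with 3495, cox-5A, a subunit of cytochrome c oxidase, with 2914, and citk-2 with 2736. The rest of the 15 strongest lay between 1884 and 2129: sec-61.G of the protein translocon, the translation initiation factor gene eif-3.C, eelo-2, dnj-9, F48A11.4, ddp-1, a small chaperone of mitochondrial import, efl-1, dld-1, which encodes dihydrolipoamide dehydrogenase, and tba-2, which encodes an alpha tubulin. Of these 15 genes, efl-1 is the single one on the DRM list.

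At the lower end the rule cuts through a run of like values. Just inside the threshold were rfc-1, the large subunit of the clamp loader, with 302, skpt-1 with 302 and slrp-1 with 301. Just outside it were aars-2, an alanyl-tRNA synthetase gene, with 299, cyc-1, which encodes cytochrome c1, with 296, and VW02B12L.2 with 295.

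Both replicates showed each member. A summit within 100 bp was found in the relaxed lists of replicates 1 and 2 for all 337, against 897 of the 987 weak peaks (90.9%), the IDR peaks of signal under 300 at single-gene autosomal promoters. Among the 30000 relaxed peaks of each replicate the members ranked from 2 to 681 in replicate 1 and from 1 to 1005 in replicate 2. Their replicate signals ranged from 124 to 2166 in replicate 1 and from 91.1 to 3096 in replicate 2. Across the 337 peaks, which share both libraries and are not independent replicates, Spearman's rho was 0.81 and Pearson's r of the log10 signals was 0.85. The log2 ratio of replicate 1 to replicate 2 had a standard deviation of 0.47 in strong peaks, against 0.81 in the weak peaks seen in both replicates. The authors called IDR peaks on the same replicates, so these values describe the list and test nothing.

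**Figure D1:**
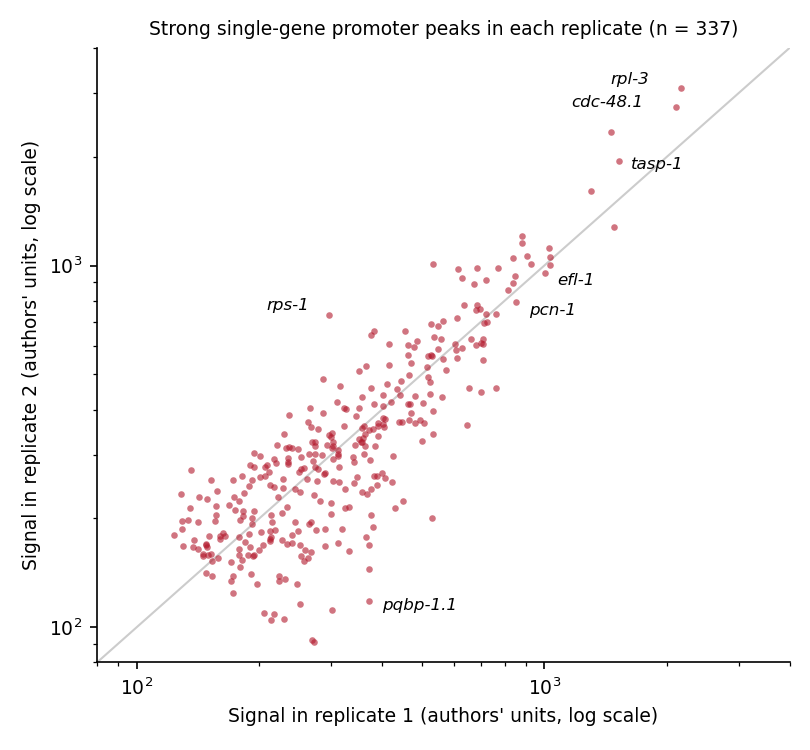
Signal of the 337 strong single-gene promoter peaks in replicate 1 (horizontal) and replicate 2 (vertical), in the authors' units on log scales; each point is a peak and the grey line marks equal signal. Most points follow the line (Spearman's rho 0.81), with rps-1 high in replicate 2 and pqbp-1.1 high in replicate 1.

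A few members differed between the replicates by more than the rest. The peak of pqbp-1.1 had 372 in replicate 1 and 118 in replicate 2, a log2 ratio of 1.66. The next ratios were 1.58 at F40F8.11 and 1.55 at F22E5.9. In the other direction rps-1, a small ribosomal subunit gene, had 296 in replicate 1 and 732 in replicate 2, a log2 ratio of -1.30. The histone methyltransferase gene set-4 followed with -0.999 and F36A2.7 with -0.92. With 2 libraries no test of these ratios was made.

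The summits lay shortly upstream of the start. The median distance was -161 bp, the quartiles were -254 and -118 bp, and the range was -496 to 107 bp. Of the 337 summits, 329 (97.6%) lay on the upstream side. The summit fell in intergenic sequence in 305 members (90.5%), in an intron in 20, in a non-coding part of an exon in 11 and in coding sequence in 1, daf-15, a gene picked out after its values were seen. A summit over 200 bp upstream of the start occurred in 130 strong peaks (38.6%) and 437 weak peaks (44.3%), an odds ratio of 0.790. The rule bounds this distance, so the shares are a description and nothing is read from a test of them. Trans-splicing and operons are common in worms, and distances are to the annotated start, which is not always where transcription starts.

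The rule leaves out peaks whose window holds the starts of several genes, yet neighbours beyond the window remain. The nearest gene on the upstream side was tandem in 194 members and divergent with its start within 2000 bp in 90 (26.7%). Among weak peaks 259 (26.2%) had such a divergent neighbour, and the difference did not pass the test (odds ratio 1.02 by Fisher's exact test, adjusted p = 0.89). Nor did it pass in peaks over the joint median of GC content, with 34.45% of strong and 25.35% of weak peaks (odds ratio 1.55 by Fisher's exact test, adjusted p = 0.068). The window of the rule removes close divergent pairs from both parts and so bounds these shares. With a window of 200 bp upstream to 100 bp downstream they were 50% of strong and 45.89% of weak peaks. With 1000 bp upstream they were 12.54% and 11.47%. The shares are a description, and nothing is read from the test.

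CHR elements were the commonest of the 6 motifs searched under the strong summits. The motifs differ in word length and base content, so this rank is a description. A CHR element, TTTGAA or TTCGAA on either strand, lay within 100 bp of the summit in 270 of 337 strong peaks (80.1%, 95% interval 75.5 to 84.2%). In the weak peaks it lay there in 459 of 987 (46.5%, 43.4 to 49.7%). The odds ratio was 4.64 (adjusted p = 2.3e-27, Fisher's exact test, two-sided, adjusted by Benjamini-Hochberg over 8 comparisons). Within the strong peaks themselves, 80.1% of summit windows held the element and 51.3% of windows centred 500 bp further upstream. It was present at the summit alone in 126 members and in the flank alone in 29 (ratio 4.34, adjusted p = 3.9e-15, McNemar's exact test over 6 motifs). In part of the members the nearest upstream gene is tandem and ends within 500 bp, so the upstream flank can lie in that gene. A downstream flank can lie in the member's own gene. How many flanks are transcribed or coding sequence was not measured. For each motif the flank is therefore not a matched set of promoter sequence. For a background, 56.9% of the 17242 autosomal promoters held a CHR element in a window of the same length at the median position of the members. The 46.5% of weak peaks lay below this share and the 80.1% of strong peaks above it, with no test against it. The word TTTGAA occurred in 72.1% of strong and 37.0% of weak peaks, and TTCGAA in 24.3% of strong and 13.98% of weak peaks.

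E2F sites were the second motif that marked strong peaks. An E2F site was any of 4 words on either strand, namely TTCCCGC, the word TTCGCGC, the word TTGCCGC and the word TTGGCGC. It lay within 100 bp of the summit in 127 strong peaks (37.7%, 32.5 to 43.1%), against 166 weak peaks (16.8%, 14.5 to 19.3%), an odds ratio of 2.99 (adjusted p = 8.1e-14, Fisher's exact test). In the flank of the strong peaks it was found in 5.93%, and 113 members held it at the summit alone against 6 in the flank alone (ratio 18.8, adjusted p = 6.6e-26, McNemar's exact test). Of all autosomal promoters 7.02% held one. The CHR element was thus the commoner word in worm promoters at large, and the E2F site the rarer.

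A GC-rich word set made from the E2F letters in reverse order also marked the strong summits. This set held CGCCCTT, the word CGCGCTT, the word CGCCGTT and the word CGCGGTT, which are not E2F sites on either strand. They were in 19.6% of strong and 10.5% of weak peaks, an odds ratio of 2.07 (adjusted p = 8.5e-05, Fisher's exact test). Their share was 4.15% in the flank of strong peaks (ratio 5.33, adjusted p = 2.0e-09, McNemar's exact test) and 3.59% in all autosomal promoters.

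The median GC content around the summit was 38.3% in strong and 40.3% in weak peaks, a difference that was not tested. In peaks at or under the joint median of GC content, CHR elements lay in 83.9% of strong and 57.5% of weak peaks (odds ratio 3.87 by Fisher's exact test, adjusted p = 1.5e-11). In peaks over it they lay in 73.1% of strong and 36.0% of weak peaks (adjusted p = 2.4e-12, Fisher's exact test). E2F sites were likewise commoner in strong peaks on both sides of that median, in 33.5% of strong and 16.8% of weak peaks at or under it (adjusted p = 7.2e-06, Fisher's exact test) and in 45.4% of strong and 16.8% of weak peaks over it (adjusted p = 1.0e-09, Fisher's exact test).

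GAGAG and CTGCGTC were rarer in strong peaks than in weak ones, though commoner than in the upstream flank. GAGAG, on either strand, lay in 126 strong peaks (37.4%) and 495 weak peaks (50.2%), an odds ratio of 0.594 (adjusted p = 8.5e-05, Fisher's exact test). At the strong summits its share was 37.4%, against 21.4% in their upstream flank (ratio 2.08, adjusted p = 2.4e-05, McNemar's exact test), and it was in 27.7% of all autosomal promoters. The difference from weak peaks did not pass in peaks at or under the joint median of GC content, with 31.2% of strong and 34.0% of weak peaks (adjusted p = 0.49, Fisher's exact test). Nor did that from the flank pass with the flank 500 bp downstream (ratio 1.27, adjusted p = 0.18, McNemar's exact test). CTGCGTC lay in 34 strong peaks (10.1%) and 191 weak peaks (19.4%), an odds ratio of 0.468 (adjusted p = 8.5e-05, Fisher's exact test), against 2.08% of the flanks of strong peaks (adjusted p = 3.0e-05, McNemar's exact test) and 3.399% of all autosomal promoters. Its difference from weak peaks did not pass at a signal of 500 or more, with 12.4% of strong and 17.9% of weak peaks (adjusted p = 0.076, Fisher's exact test). The word CTTATCA, bound by GATA factors, was in 4 strong peaks (1.19%) and 26 weak peaks (2.63%), which did not pass (adjusted p = 0.16, Fisher's exact test), and in 6.19% of all autosomal promoters. With replicate 1 alone the difference passed (odds ratio 0.234 by Fisher's exact test, adjusted p = 0.011), as it did with replicate 2 alone.

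**Figure D2:**
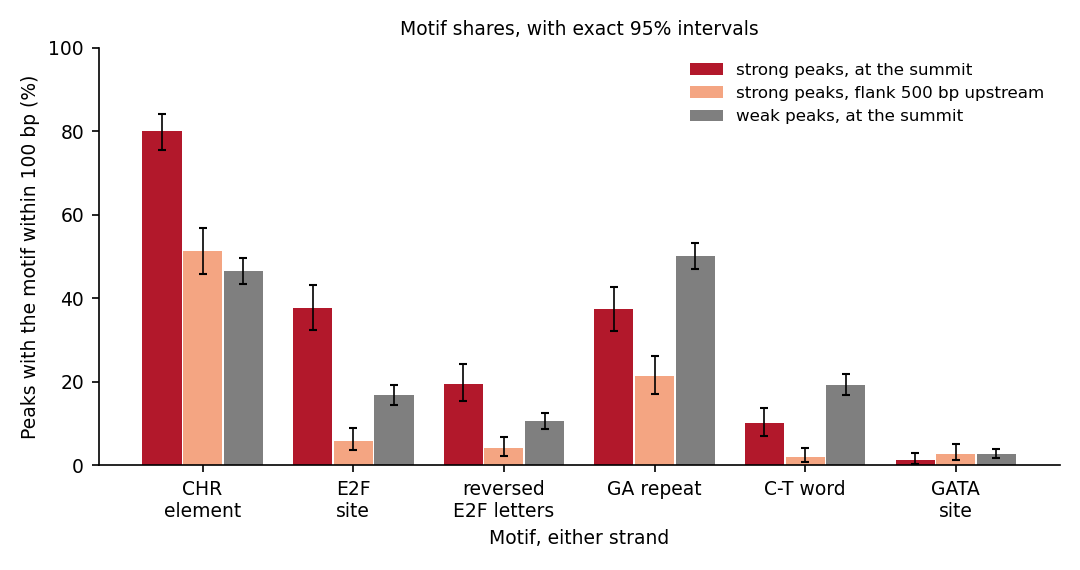
Share of peaks, in percent, with each of 6 motifs within 100 bp of the centre of the window: at the summit of strong peaks (red), 500 bp upstream of it (light) and at the summit of weak peaks (grey), with exact 95% intervals; GA repeat stands for GAGAG and C-T word for CTGCGTC. CHR elements (80.1%) and E2F sites (37.7%) stand higher at strong summits than in either other set, whereas GAGAG (37.4%) lies between the flank and the weak peaks.

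In the strong peaks the CHR element stood beside the summit and seldom under it. A CHR element lay 20 to 70 bp from the summit in 242 strong peaks (71.8%) and 304 weak peaks (30.8%). It lay within 15 bp of the summit in 8 strong peaks (2.37%) and 43 weak peaks (4.36%). The 2 spans differ in length, so their shares are not densities. Weak peaks dipped at the summit too. Their shares were 1.22% and 1.01% in the 10 bp bins next to it, 3.04% at 30 to 20 bp upstream and 4.36% at 20 to 30 bp downstream. On the upstream side of the summit 185 strong peaks (54.9%) held one at 20 to 70 bp, against 146 weak peaks (14.8%). On the downstream side 113 strong peaks (33.5%) did, against 181 weak peaks (18.3%). Both sides held one in 56 strong peaks (16.6%) and 23 weak peaks (2.33%). These distances were chosen after the positions were seen, so they carry no test. A single width was common among weak peaks: 548 of 987 (55.5%) had a width of 344 bp, against 1 strong peak. How precisely the summits of these peaks are placed was not measured. Among the 439 weak peaks of other widths, 38.3% held a CHR element 20 to 70 bp from the summit and 3.19% held one on both sides. Set against these 439 peaks alone, the odds ratio within 100 bp of the summit was 3.53 for the CHR element (adjusted p = 2.7e-14, Fisher's exact test) and 1.95 for the E2F site (adjusted p = 0.00011, Fisher's exact test).

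**Figure D3:**
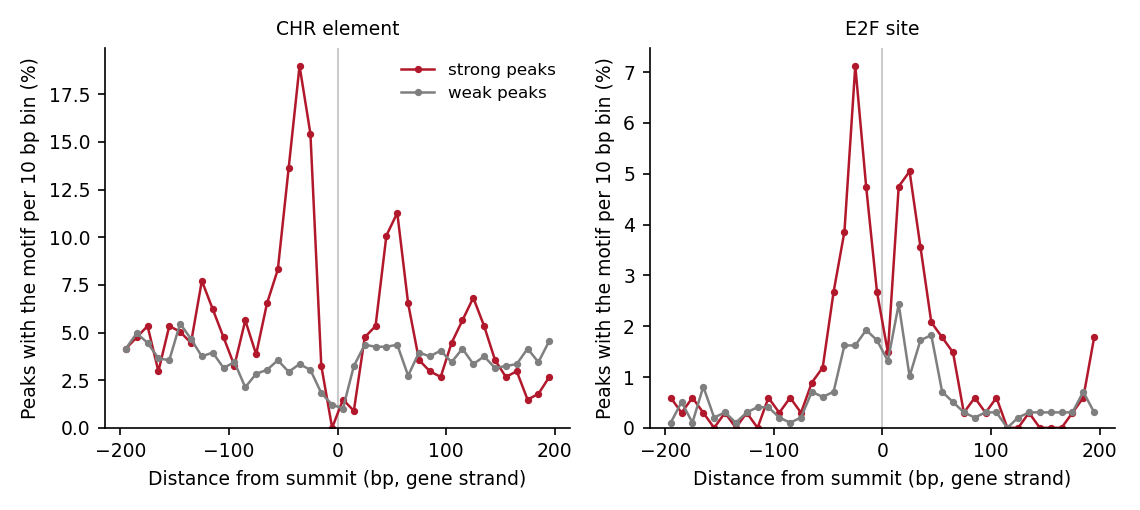
Share of peaks, in percent, with the centre of a CHR element (left) or an E2F site (right) in each 10 bp bin of distance from the summit, negative upstream on the strand of the gene, for 337 strong peaks (red) and 987 weak peaks (grey). In strong peaks both motifs have a maximum on each side of the summit, the upstream one higher, and the CHR element reaches 18.99% of peaks 40 to 30 bp upstream.

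The CHR element was counted apart in strong peaks with and without an E2F site. It lay in 81.9% of strong peaks with an E2F site and in 79.0% of strong peaks without one, with no test between them. In weak peaks these shares were 57.8% with an E2F site and 44.2% without. Both motifs lay within 100 bp of the summit in 30.9% of strong peaks, against 9.73% of weak peaks. A CHR element without an E2F site was found in 166 strong peaks (49.3%), an E2F site without a CHR element in 23 (6.82%) and neither in 44 (13.1%). In weak peaks neither was found in 458 (46.4%). The median signal was 612 in the members with both, 597 in those with the CHR element alone, 604 in those with the E2F site alone and 501 in those with neither. The member with the highest signal among the last was eif-3.C, with 2122.

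Where both motifs were present they were often close. The shortest gap between them was 10 bp or less in 64 strong peaks and 46 weak peaks. Gaps of 0, 1 and 9 bp were the most frequent in the strong peaks, with 12, 14 and 16 peaks. In the 96 weak peaks with both motifs those gaps had 5, 12 and 7. The 5 strongest members with no gap were sec-61.G, tba-2, ufd-3, mys-1 and the SR splicing factor gene rsp-6, with signals of 2129, 1908, 1221, 630 and 571. Of these, ufd-3 encodes a partner of CDC-48 and mys-1 a histone acetyltransferase of the MYST family. In the printed sequences sec-61.G, ufd-3 and mys-1 share the order of a CHR element followed directly by an E2F site on the strand of the gene. In efl-1 the shortest gap was 113 bp.

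Within the strong peaks the CHR share was highest in the top quartile of signal, and the E2F share changed little. From the lowest to the highest quartile CHR elements were in 72.9, 82.1, 75 and 90.5% of members. E2F sites were in 36.5, 36.9, 38.1 and 39.3%. In the weak peaks the same quartiles gave 39.3, 43.7, 44.3 and 58.7% for the CHR element and 10.9, 14.2, 14.6 and 27.5% for the E2F site. Signal formed these classes, and no test was made within them.

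**Figure D4:**
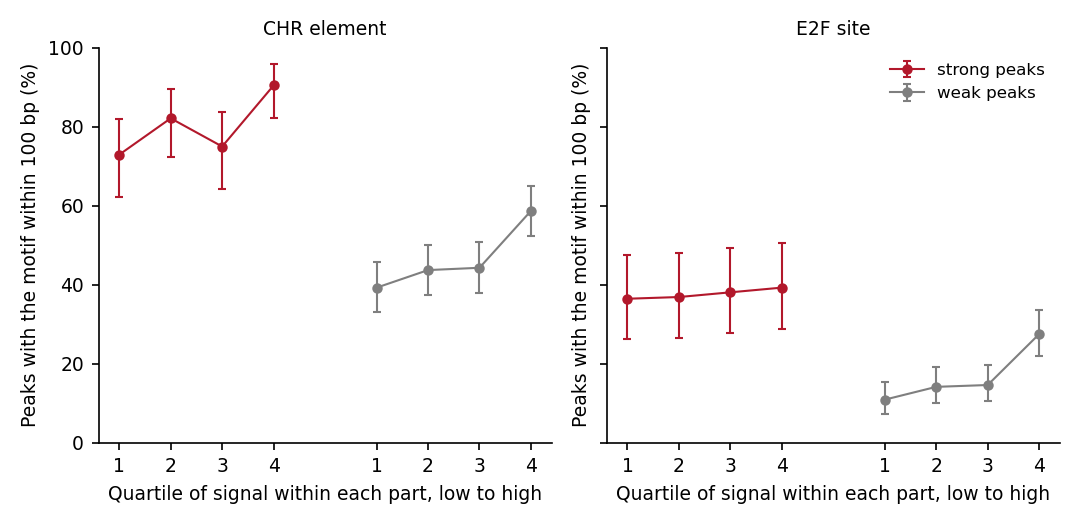
Share of peaks, in percent, with a CHR element (left) or an E2F site (right) within 100 bp of the summit, by quartile of signal from low to high within strong peaks (red) and within weak peaks (grey), with exact 95% intervals. The CHR share reaches 90.5% in the top quartile of strong peaks, while the E2F share of strong peaks stays between 36.5 and 39.3%.

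The genes behind the members were sorted by 29 lists of gene groups. These lists were chosen with earlier results of these data known, so the counts are descriptions beside the background of 1.95%. In all, 105 members were in at least 1 list, 232 were in none, and 76 of the 337 had a sequence name only. The DRM list had 2 of its 8 autosomal genes among the members, efl-1, the E2F subunit, and lin-9, a MuvB subunit. The peak of efl-1 had a signal of 1946 in the IDR list, 1003 in replicate 1 and 956 in replicate 2. That of lin-9 had 1030 in the IDR list, 480 in replicate 1 and 594 in replicate 2. Both held an E2F site and a CHR element. A further 3 DRM genes had strong peaks only in windows shared with another gene, and 3 had no promoter summit. None of the 20 autosomal genes of the E2F and G1/S list was among the members, whereas 1 had a strong shared peak and 6 had weak peaks only. That list leaves out efl-1, which is counted with the DRM genes. It is also too short to fall visibly below the background of 1.95%.

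DNA replication had the largest count of members, 12 of 50 genes (24.0%), with 13 more in shared windows. Of the 12, 11 held an E2F site and 10 a CHR element, against 37.7% and 80.1% of all members. The strongest of the 12 was pcn-1, which encodes PCNA, the sliding clamp of DNA polymerases. It had 1632 in the IDR list, 853 in replicate 1 and 793 in replicate 2. It was followed by mcm-4, a subunit of the MCM helicase, with 938 in the IDR list, and pole-1, the catalytic subunit of DNA polymerase epsilon, with 839. The helicase genes mcm-7 and mcm-2 had 627 and 388. The median over the 12 was 440, against 581 over all members. The share of this list that were members was thus high, but its 12 genes were a small part of the 337 members.

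Genes of mitosis and of DNA repair were members in smaller shares than those of replication, with no test between the lists. Of 77 mitosis and kinetochore genes, 6 (7.79%) were members, near the 7.89% of all listed genes, and 18 had strong peaks in shared windows only. All 6 held an E2F site, against 37.7% of all members. Among the 6 were tba-2 with 1908, the cohesin loader gene scc-2 with 557 and mdf-1, a spindle checkpoint gene, with 542. The centriole gene sas-5, with 632, was the only member of the 14 centrosome genes. Of 58 autosomal DNA repair and checkpoint genes 7 (12.1%) were members. All 7 held a CHR element and 2 an E2F site, against 80.1% and 37.7% of all members. No trait of this list is read from these counts. The strongest of the 7 were mrt-2, a subunit of the checkpoint clamp, with 1063, the checkpoint kinase gene chk-1 with 791 and brc-1, the worm BRCA1 gene, with 656.

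The nuclear transport and chromatin lists were the other nuclear lists with many members, with npp-19 counted in both. Of 40 nucleoporin and nuclear transport genes 9 (22.5%) were members. All 9 held a CHR element and 7 an E2F site, against 80.1% and 37.7% of all members. The strongest of the 9 were ima-2, an importin alpha gene, with 1471, npp-19, a nucleoporin gene, with 1309, and imb-3, an importin beta family gene, with 1267. Of 51 genes on the chromatin regulator list 10 (19.6%) were members, and 7 of these held an E2F site. Not all of the 10 are chromatin regulators in a strict sense, since they include the nucleoporin gene npp-19. Others were mes-2, the H3K27 methyltransferase of the Polycomb-type complex, with 976, and isw-1, a nucleosome remodeller, with 686. Of 76 histone genes only his-37 was a member, with 732.

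Among the ribosomal protein genes, rpl-3 and rpl-35 were 2 of the 3 strongest members, while the median signal was 797 over the large-subunit members and 442 over the small-subunit members. Of 48 large-subunit genes 7 (14.6%) were members, 6 with a CHR element, as in most members, and 0 with an E2F site. Of 31 small-subunit genes 4 (12.9%) were members, 0 with a CHR element and 1 with an E2F site. After rpl-3 and rpl-35 the next were rpl-24.2 with 1478 and rps-1 with 1033. The mitochondrial ribosome had 4 of 70 genes (5.71%), all 4 with an E2F site and 1 with a CHR element. Their strongest were mrpl-28 with 928, mrps-16 with 884 and mrpl-55 with 774. These are small counts and no test was made between the lists. Of all members 80.1% held a CHR element and 37.7% an E2F site. Translation factors had 5 members of 38 (13.2%), led by the initiation factor genes eif-3.C with 2122 and eif-3.B with 1172 and by iff-2, an eIF5A gene, with 1024. Aminoacyl-tRNA synthetases had 2 of 32, vars-1 with 618 and sars-2 with 393.

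Genes of protein handling, RNA and mitochondria made up most of the remaining listed members. The ubiquitin list had 6 of 66 genes, led by cdc-48.1, the E2 enzyme gene ubc-7 with 1230 and ufd-3 with 1221. The proteasome had 3 of 33, rpn-11, the deubiquitinase of the lid, with 997, pas-5 of the core with 648 and the ATPase gene rpt-1 with 493. Chaperones had 4 of 61, among them dnj-9, the prefoldin gene pfd-6 with 1170 and dnj-10 with 601. Vesicle traffic had 6 of 71, among them sec-61.G, the ESCRT ATPase gene vps-4 with 1095 and the COPII coat gene sec-24.1 with 718. Splicing had 4 of 51, among them the Sm protein gene snr-6 with 896, lsm-5 with 645 and rsp-6. RNA polymerases and general factors had 5 of 76, among them rpb-11 of RNA polymerase II with 1689, the Integrator gene ints-4 with 1225 and ttb-1, the TFIIB gene, with 529. Mitochondrial import had 3 of 18, ddp-1 with 1884, the receptor gene tomm-20 with 1720 and tin-13 with 315. The respiratory chain had 3 of 40, cox-5A, cox-5B with 633 and cox-4 with 302. The share was 16.7% in mitochondrial import. In the other lists named here it ran from 6.56% (chaperones) to 9.09% (ubiquitin and proteasome), beside 7.89% of all listed genes.

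Lists of tissue and germline genes held few members or none. None of 146 autosomal cuticle collagens, 36 germline and P granule genes, 31 neuronal genes, 22 intestinal genes and 16 cell death genes was among them. Body wall muscle had 1 of 22, unc-45, a myosin chaperone gene, with 403, and meiosis 1 of 40, the checkpoint gene pch-2, with 447. The shares of these lists, from 0 to 4.55%, lie about the background of 1.95% or below it, and 1 gene decides the upper value.

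**Figure D5:**
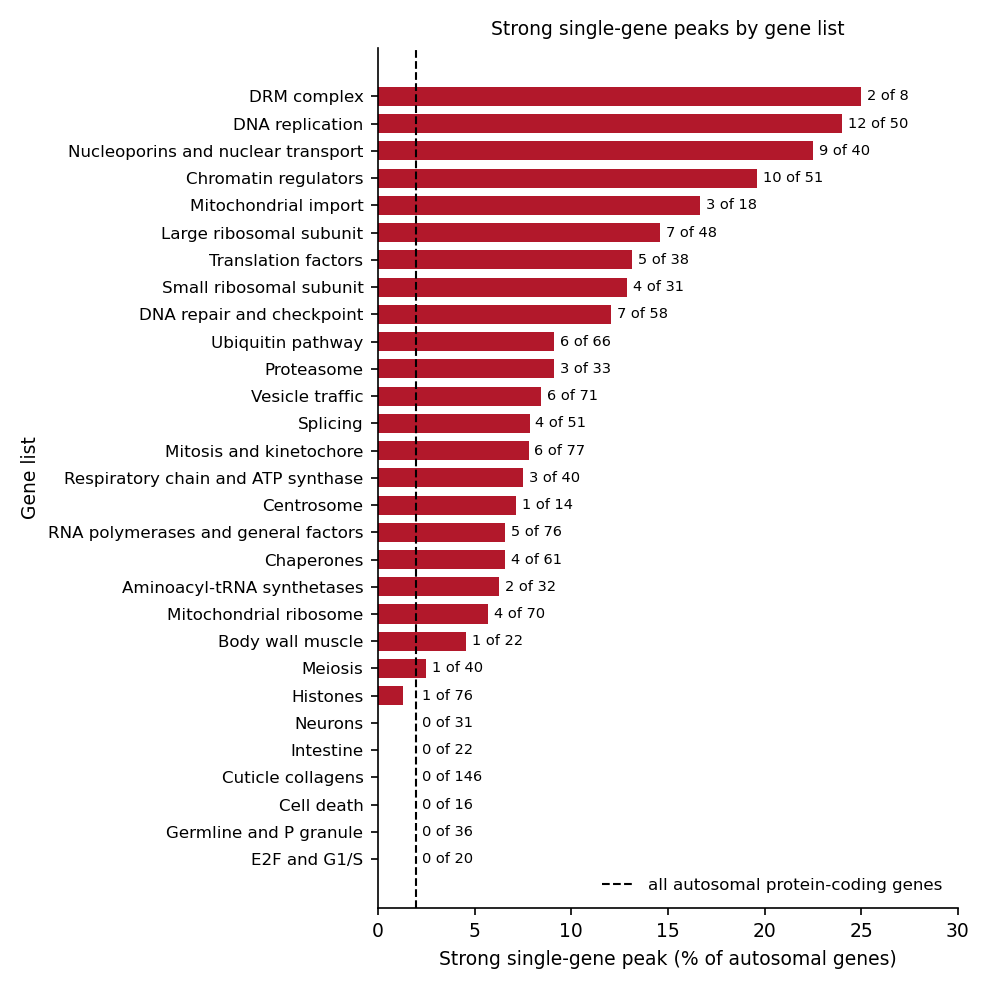
Share of the autosomal genes of each of 29 lists, in percent, whose window alone holds a summit with a signal of 300 or more, with the count beside each bar; the dashed line is the 1.95% of all autosomal protein-coding genes. DNA replication (12 of 50) and nuclear transport (9 of 40) reach more than 20% with many genes, and 6 lists have no member.

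The members were spread over the 5 autosomes, with 71 on chromosome I, 75 on II, 74 on III, 58 on IV and 59 on V. Of the 566 IDR peaks with a signal of 300 or more, these 337 were the largest class. Another 175 autosomal peaks lay in windows of several genes, 46 lay in no promoter window and 8 lay on the X chromosome.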

How the data were processed

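ChIP-seq of GFP-tagged DPL-1 was measured in 2 biological replicates of 1 group. Per the deposited file listings, each replicate's relaxed peaks were called against a control alignment, and the IDR list rests on the lists of both replicates and of their pool. The names of the aligner and the caller were not given in the sources used here. Signal is the value the authors deposited for each peak, relative to the control. The deposited score column and the −log10 q of the authors' lists were not used for ranking, and the summit offset in bp gave the summit. Depth is unknown, as the lists hold no read counts, and intervals cover only how many peaks were counted. The signal set the members, and the IDR threshold was set on these replicates.

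Coordinates are 1-based on ce11, with genes from Ensembl release 115 (WBcel235) and sequence from RefSeq. Counting the summit from 0 gave the same 337 members. Motifs were searched on both strands in the 201 bp around each summit. Strong and weak peaks were compared by Fisher's exact test, two-sided, and summit and flank by McNemar's exact test, with Benjamini-Hochberg adjustment over 8 and 6 comparisons and a threshold of 0.05. The distance of the summit from the start is among the 8 but is described only, since the rule bounds it. The divergent neighbour is likewise among the 8 and described only, since the window of the rule removes close pairs. Peaks are not replicates of a condition, so p-values speak of these lists only. Intervals are exact 95% Clopper-Pearson. The code of the tests was checked on random sequence with a planted motif and evenly spaced genes. That setting lacks the base content and crowded genes of these peaks, so it does not show that the p-values hold here. Python 3.11.15, numpy 2.4.6, pandas 2.3.3, scipy 1.17.1 and matplotlib 3.10.9 were used.

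The members, lists, motifs and alternatives were chosen with earlier results of these data known. Named genes are those of the 15 strongest members, all members of the DRM and E2F lists, the 3 strongest of each other list, the 3 nearest the threshold on each side, the 3 highest and 3 lowest ratios between replicates and the 5 shortest E2F to CHR gaps. Printed sequences come from members outside chromosome I: the strongest with an E2F site, the strongest replication genes with an E2F site, the strongest with GAGAG and no E2F site, and the shortest E2F to CHR gaps, not all of which are shown. Symbols without a match in the annotation numbered 9 and were left out. The alternatives were other thresholds, windows, starts, flanks and distances, each replicate alone, and subsets by GC content, width and replicate support.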

Additional observations from a re-analysis of the deposited data

How the results depend on the processing

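Odds ratios here are strong over weak peaks, and ratios are summit alone over flank alone. All 337 members had a summit in both replicates at 100 bp, and 99.7% at 50 bp. The members numbered 209 at a signal of 500 or more and 287 to 452 under the other settings. Similar numbers did not mean the same genes. Of the 337 genes, 205 remained with the window of 200 bp upstream to 100 bp downstream and 265 with that of 1000 bp upstream. CHR elements, E2F sites and the reversed letters kept their direction and their side of the threshold under all alternatives, 13 against weak peaks and 11 against the flank. Against weak peaks the odds ratios ran from 3.31 to 5.35 for CHR elements, from 1.95 to 4.11 for E2F sites and from 1.77 to 2.56 for the reversed letters. At a signal of 500 or more CTGCGTC no longer passed (odds ratio 0.654 by Fisher's exact test, adjusted p = 0.076), nor did it in peaks over the median of GC content (0.571). GAGAG no longer passed against weak peaks in windows of 200 bp upstream to 100 bp downstream (0.899) or in peaks at or under the median of GC content (0.879), nor against flanks 500 bp downstream (ratio 1.275) and 1000 bp upstream (ratio 1.3). The GATA site came to pass at a signal of 500 or more, where no strong peak of 209 held it (odds ratio 0, and ratio 0 against the flank), in windows of 200 bp either side (0.464) and with each replicate alone (0.234 to 0.275), and turned to 1.04 without weak peaks of the common width. For a summit over 200 bp upstream, a distance the rule bounds, the odds ratio of 0.790 was past the threshold in 3 settings, the window of 1000 bp upstream (0.610), 250 bp (0.737) and replicate 1 alone (0.687, without replicate 2), but not with replicate 2 alone (0.904). Nothing is read from these tests, and the window of 200 bp upstream allows no such value. The divergent neighbour, which passed in no setting, turned to 0.912 at a signal of 500 or more, 0.964 with the most upstream start, 0.778 without weak peaks of the common width and 0.777 at or under the median of GC content, against 1.55 over it, with 0.944 to 1.09 for each replicate alone. The share of strong peaks with a divergent neighbour moved with the window, from 50% at 200 bp upstream to 12.54% at 1000 bp. Nothing is read from the tests of this neighbour either. The causes of these changes were not tested. Subsets by width, GC content and replicate support were chosen after seeing the data. No pairing of samples between conditions was possible because there is 1 group. Only the summit and flank of each peak were compared as a pair.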
